A study of Mus musculus with 4 samples.

Results

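The genes described here encode glycoproteins of the extracellular matrix: fibronectin (Fn1), the matricellular proteins tenascin C (Tnc), periostin (Postn), SPARC (Sparc) and thrombospondins 1 and 2 (Thbs1, Thbs2), and the elastic fibre proteins elastin (Eln), fibrillin 1 (Fbn1) and fibulins 2 and 5 (Fbln2, Fbln5). These 10 genes were chosen by name from the 17097 genes with a single-gene probe set in the table, and every single-gene probe set of each was taken. A probe set is a group of short array probes read as a single transcript. Of the 10 genes, 8 had such a probe set, 13 probe sets in all, while Fbn1 and Thbs1 had none and were not analysed here. The arrays measured RNA of whole inguinal mammary glands taken from mice on postnatal day 10. The tested animals were global knockouts, Mt1-mmp(-/-), and the others were wild-type, Mt1-mmp(+/+), littermates on the outbred Swiss Black background, with 2 arrays per genotype, each called a biological replicate. Mt1-mmp is the gene listed as Mmp14, which encodes a membrane-anchored metalloproteinase that cuts collagen. The deletion is present in every cell of the mouse, no treatment was given in the labels, and the number of animals behind an array was not stated, so the spread between the 2 arrays of a genotype may be partly technical.

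Fibronectin is secreted as a dimer and drawn out into fibrils by cells that bind it through integrins. Elastic fibres have a core of crosslinked elastin on a scaffold of fibrillin microfibrils, and fibulins help to join the core to the scaffold. Matricellular proteins lie in the same matrix but mainly regulate how cells attach to it, how its fibres assemble and how growth factors reach their receptors. In the mammary gland these proteins are made largely by stromal cells around the ducts and in the fat pad. MT1-MMP can cleave several of them at the protein level, which an RNA array does not measure.

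The values are RMA expression values on a log2 scale, so a difference of 1 is a 2-fold change. Mmp14 itself was at 5.83 and 5.68 in the knockout arrays and 8.92 and 8.73 in the wild-type arrays, 8.40-fold lower in the knockout, with a limma adjusted p of 0.0738. Whether its probes lie in the deleted part is not given in the sources used here. The array medians lay between 4.92 and 4.98. The 3-prime minus 5-prime difference of control probe sets, a sign of RNA quality, was 0.61 and 0.56 in the knockout arrays and 0.46 and 0.51 in the wild-type arrays for actin, and 0.10 and 0.12 against 0.19 and 0.18 for Gapdh (log2). The genotypes did not overlap in either control, in opposite directions, and the part of RNA quality in the results was not tested. The arrays held different amounts of other tissue: relative to the wild-type mean, the median over 9 tested skeletal muscle markers was -0.76 for knockout replicate 1 but 5.61 for knockout replicate 2, and wild-type replicate 2 lay 2.31 above wild-type replicate 1. The 7 tested markers of epidermis and hair follicle had medians of 3.16 and -0.64 in knockout replicates 1 and 2, in that order. A typical gene differed by 0.21 between the 2 knockout arrays and by 0.08 between the 2 wild-type arrays (medians over genes).

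Of the 7 glycoprotein genes bright enough to be tested, Fn1, Postn and Sparc were lower in both knockout arrays than in both wild-type arrays. Tnc and Thbs2 were higher in both, and the groups overlapped for Eln and Fbln5. No gene of the 7 passed the test, which was limma with Benjamini-Hochberg adjustment over 11078 genes at 0.05, and their adjusted p-values ran from 0.169 to 0.866. Over all genes 0 were called higher and 0 lower (0% in each direction), against 1074 and 1337 at an unadjusted p under 0.05. Among all genes, 32.5% were lower in both knockout arrays and 26.3% higher in both, 58.8% together, so the 5 of 7 seen here lie near the share of the whole array. At an unadjusted limma p under 0.05 there were 2 of 7, Fn1 lower and Tnc higher, where 12.1% of all genes were lower and 9.69% higher, 21.8% together. The median difference of the 7 genes was 0.08, beside -0.02 for all genes tested.

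**Figure D1:**
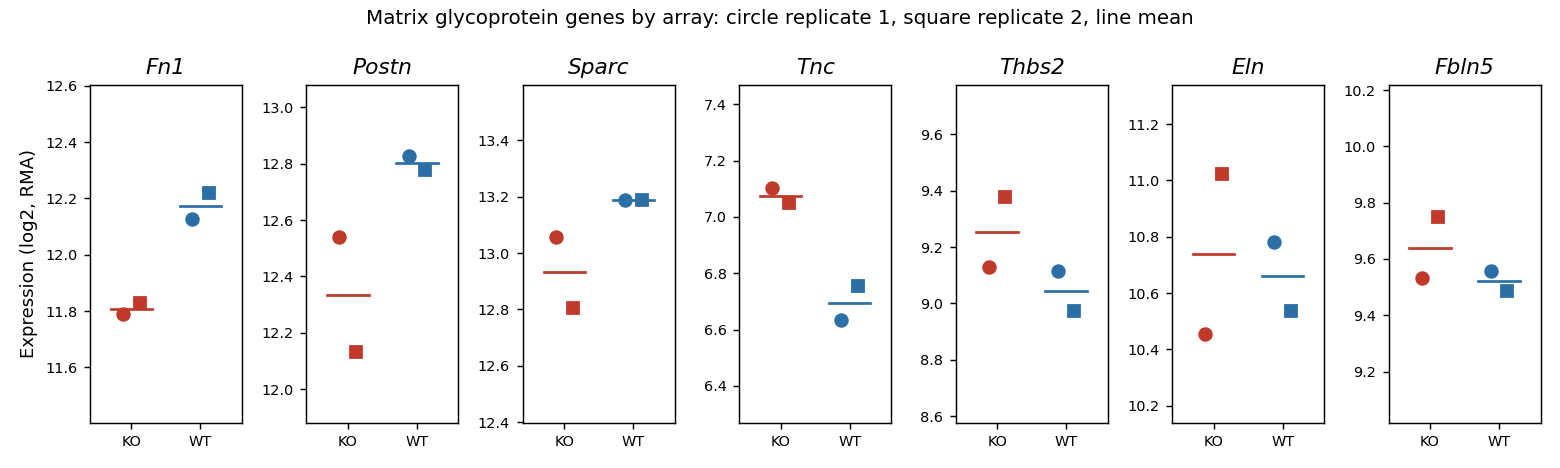
Expression (log2, RMA) of the brightest probe set of the 7 tested genes, with knockout (KO) arrays in red on the left and wild-type (WT) arrays in blue on the right of each panel. Circles are replicate 1, squares replicate 2 and lines the means, and every vertical axis spans the same log2 range around a different centre. The groups do not overlap for Fn1, Postn, Sparc, Tnc and Thbs2, and they overlap for Eln and Fbln5.

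The promoters of 4 of the 5 genes whose groups did not overlap, all but Fn1, are given here: Postn and Sparc, lower in the knockout arrays, and Tnc and Thbs2, higher in them. Each runs 5′ to 3′ on the gene's strand from 250 bases before to 50 bases after an annotated start, from RefSeq on GRCm38.p6, and capitals mark matches to the motifs named after the sequences. For Postn both annotated starts are shown, since their windows do not overlap. For Tnc, whose 2 windows overlap, the start listed first is shown, and the second held 1 further SMAD core match.
Postn start 1, chr3:54359017-54359316, plus strand: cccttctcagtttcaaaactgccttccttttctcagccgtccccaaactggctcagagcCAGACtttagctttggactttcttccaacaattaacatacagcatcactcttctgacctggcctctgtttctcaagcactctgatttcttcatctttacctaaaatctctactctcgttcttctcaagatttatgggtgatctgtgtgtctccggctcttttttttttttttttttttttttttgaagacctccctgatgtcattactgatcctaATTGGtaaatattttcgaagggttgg
Postn start 2, chr3:54360857-54361156, plus strand: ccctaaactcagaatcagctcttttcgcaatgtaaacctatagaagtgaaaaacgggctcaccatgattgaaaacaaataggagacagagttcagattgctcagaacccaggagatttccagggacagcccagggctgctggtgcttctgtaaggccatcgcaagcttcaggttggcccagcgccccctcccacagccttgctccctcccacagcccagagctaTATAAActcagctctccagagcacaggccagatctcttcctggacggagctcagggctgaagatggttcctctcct
Sparc, chr11:55420031-55420330, minus strand: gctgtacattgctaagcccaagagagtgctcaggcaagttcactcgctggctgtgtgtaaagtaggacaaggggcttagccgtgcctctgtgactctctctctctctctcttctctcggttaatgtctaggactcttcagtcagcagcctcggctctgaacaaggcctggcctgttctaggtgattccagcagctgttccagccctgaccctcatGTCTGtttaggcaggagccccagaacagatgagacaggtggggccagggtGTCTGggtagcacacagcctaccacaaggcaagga
Tnc, chr4:64046966-64047265, minus strand: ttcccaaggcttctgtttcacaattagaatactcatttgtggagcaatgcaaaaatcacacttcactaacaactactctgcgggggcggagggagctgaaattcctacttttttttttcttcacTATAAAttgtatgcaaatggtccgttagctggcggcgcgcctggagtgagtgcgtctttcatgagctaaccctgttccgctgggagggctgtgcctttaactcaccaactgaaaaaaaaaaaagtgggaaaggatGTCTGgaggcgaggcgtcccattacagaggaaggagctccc
Thbs2, chr17:14694213-14694512, minus strand: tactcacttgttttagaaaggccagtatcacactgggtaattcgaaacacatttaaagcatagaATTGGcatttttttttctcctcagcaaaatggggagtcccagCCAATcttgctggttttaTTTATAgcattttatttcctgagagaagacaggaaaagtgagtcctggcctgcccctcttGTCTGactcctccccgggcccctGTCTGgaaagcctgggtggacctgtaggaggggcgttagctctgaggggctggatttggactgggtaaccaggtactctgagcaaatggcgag

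Both strands were searched for 5 motifs: the TATA box TATAAA, the CCAAT box CCAAT, the AP-1 site TGANTCA, the SMAD core CAGAC and the TEAD site GGAATG. None of these matches overlapped another. Postn start 2 held TATAAA beginning 26 bases before the start, and Postn start 1 held no TATA box match but CAGAC and CCAAT. Sparc held CAGAC at 2 places. Tnc held 1 TATA box match, beginning at -126 relative to the start, and 1 SMAD core match. Thbs2 held 2 CCAAT box and 2 SMAD core matches. It also held 1 TATA box match on the opposite strand (TTTATA), beginning at -126 in the printed sequence. Among 32544 RefSeq promoter windows of this length, 13.6% held TATAAA, 37.4% CCAAT, 7.79% TGANTCA, 49.5% CAGAC and 14.6% GGAATG. A SMAD core match was thus present in Postn start 1 and Sparc, which were lower, and in Tnc and Thbs2, which were higher, while 49.5% of all windows held one. The AP-1 and TEAD letters were not found in these 5 windows. These matches describe the letters and do not show binding.

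Fibronectin was lower in both knockout arrays by a similar amount. Fn1 was at 11.79 and 11.83 in knockout replicates 1 and 2, and at 12.13 and 12.22 in wild-type replicates 1 and 2. Both knockout values lay below both wild-type values, and the knockout arrays were closer to each other than the wild-type arrays were. The difference was -0.37 ± 0.10 (log2, SE, n = 2 per group), or 1.29-fold lower, with a 95% interval of -0.63 to -0.10. It did not pass, with a limma adjusted p of 0.169. A difference larger than this in size was found for 28.8% of all genes tested. In a bulk sample fewer cells of a type and less RNA per cell cannot be told apart, and that holds for each gene described here.

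Periostin, which binds fibronectin and collagen and promotes collagen crosslinking, was also lower in both knockout arrays, but by unequal amounts. Postn was at 12.54 and 12.13 in knockout replicates 1 and 2, and at 12.83 and 12.78 in the wild-type replicates. The groups did not overlap, and knockout replicate 2 lay further below wild-type than replicate 1, by 0.67 against 0.26. The difference of -0.47 ± 0.17 (log2, SE, n = 2 per group), 1.38-fold lower, had the widest distance from 0 among the 7 brightest probe sets, with a 95% interval of -0.95 to 0.01 and a limma adjusted p of 0.234. The gap between the knockout arrays was 0.87 times that difference.

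SPARC, a collagen-binding protein that takes part in collagen processing, had 2 bright probe sets with similar differences. The brighter probe set of Sparc was at 13.06 and 12.80 in knockout replicates 1 and 2, and at 13.19 in each of the wild-type replicates. The other was at 12.23 and 12.13 in the knockout arrays and 12.51 and 12.43 in the wild-type arrays. In both probe sets the knockout arrays lay below the wild-type arrays, and replicate 2 was the lower of the knockout pair. In the limma fit over genes the brighter set differed by -0.26 ± 0.13 (SE, n = 2 per group), with a 95% interval of -0.61 to 0.10 (adjusted p = 0.323). In the limma fit over all probe sets the same set had -0.26 ± 0.11, with an interval of -0.56 to 0.05 (adjusted p = 0.390). The other set had -0.29 ± 0.08 in that second fit, with an interval of -0.51 to -0.07 (limma adjusted p = 0.233).

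Leaving out 1 array changed these 3 results. Without knockout replicate 1, limma called Fn1 (-0.35, adjusted p = 0.0494), Postn (-0.67, 0.0131) and Sparc (-0.38, 0.0309) lower, on the assumption that the remaining knockout array varies as the wild-type arrays do. In that comparison 24.6% of all genes were called lower and 13.1% higher, so 3 of 7 lower stands beside a wide background. Without knockout replicate 2 no glycoprotein gene was called, where 4.99% of all genes were called lower and 6.73% higher. Relative to the wild-type mean, the skeletal muscle markers had a median of 5.61 in knockout replicate 2, as given above. In the same array the 10 stromal fibroblast markers had a median of -0.44, against -0.12 in knockout replicate 1, and their summed level ran from 13.8 to 14.3 (log2 of the sum) in the knockout arrays and from 14.3 to 14.4 in the wild-type arrays. The part of either marker list in the lower Postn and Sparc values was not tested.

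Tenascin C, an anti-adhesive glycoprotein made at sites of tissue growth and repair, had the steadiest higher values. The brighter probe set of Tnc was at 7.10 and 7.05 in knockout replicates 1 and 2, and at 6.64 and 6.76 in the wild-type replicates. All knockout values lay above all wild-type values, and each pair of arrays was close. The difference was 0.38 ± 0.10 (log2, SE, n = 2 per group), or 1.30-fold higher, with a 95% interval of 0.10 to 0.66 and a limma adjusted p of 0.170. A second probe set was near the background of the array, at 4.07 and 4.01 in the knockout arrays and 3.80 and 3.94 in the wild-type arrays, and it pointed the same way by 0.17. The 95% interval of that second difference, from the limma fit over all probe sets, was -0.07 to 0.41 and included 0.

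Thrombospondin 2, a secreted inhibitor of blood vessel growth, was higher in both knockout arrays in each of its 2 probe sets, but the size depended on the probe set. The brighter probe set of Thbs2 was at 9.13 and 9.38 in knockout replicates 1 and 2, and at 9.11 and 8.97 in the wild-type replicates. The groups were separated by only the small step between knockout replicate 1 and wild-type replicate 1. This set gave 0.21 ± 0.13 (log2, SE, n = 2 per group), with a 95% interval of -0.17 to 0.59 and a limma adjusted p of 0.417. The other set was at 8.93 and 9.41 in the knockout arrays and 8.57 and 8.50 in the wild-type arrays, a clear separation. In the limma fit over all probe sets it differed by 0.64 ± 0.18, or 1.56-fold, with a 95% interval of 0.14 to 1.14 (adjusted p = 0.241). The brighter set had 0.21 ± 0.12 in that fit, with an interval of -0.12 to 0.54. Both probe sets were designed on the same RefSeq transcript accession, per the array annotation. In both, knockout replicate 2 was the higher of the knockout arrays.

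Elastin, the crosslinked core protein of elastic fibres, differed more within the knockout pair than between genotypes. The brighter probe set of Eln was at 10.45 and 11.02 in knockout replicates 1 and 2, and at 10.78 and 10.54 in the wild-type replicates. Knockout replicate 1 was the lowest of the 4 arrays and knockout replicate 2 the highest, with both wild-type arrays between them. The difference was 0.08 ± 0.24 (log2, SE, n = 2 per group), with a 95% interval of -0.59 to 0.74 and a limma adjusted p of 0.866, and the gap between the knockout arrays was 7.27 times as large. A second Eln probe set was at 7.39 and 7.83 in the knockout arrays and 7.65 and 7.40 in the wild-type arrays. Its order at the extremes was the same. In the limma fit over all probe sets it differed by 0.09 ± 0.19, and the brighter set by 0.08 ± 0.23. For the brighter set the sign turned to -0.21 without knockout replicate 2 and to -0.044 without wild-type replicate 2. Smooth muscle cells make elastin in vessel walls. Relative to the wild-type mean, 6 markers of smooth muscle and pericytes had medians of -0.12 and 0.22 in knockout replicates 1 and 2. These markers were mixed. Kcnj8 (-0.53) and Rgs5 (-0.45) were lower in both knockout arrays, as were 32.5% of all genes, and the groups overlapped for the other 4. Of these, Des was at 2.29 in knockout replicate 2, relative to the wild-type mean. The part of these markers in the Eln values was not tested.

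Fibulin 5, which binds elastin and integrins and is needed for elastic fibre assembly, also overlapped between genotypes. Fbln5 was at 9.53 and 9.75 in knockout replicates 1 and 2, and at 9.56 and 9.49 in the wild-type replicates. Only knockout replicate 2 stood above the wild-type arrays. The difference was 0.12 ± 0.12 (log2, SE, n = 2 per group), with a 95% interval of -0.22 to 0.45 and a limma adjusted p of 0.594. A second, dim probe set pointed the other way, at 4.31 and 4.28 in the knockout arrays and 4.47 and 4.50 in the wild-type arrays, a difference of -0.19. The only single-gene probe set of Fbln2 was near background, at 3.82 and 3.95 in the knockout arrays and 3.87 and 3.78 in the wild-type arrays, below the brightness limit of 4.94, and was not tested with the others. Its values overlapped, and they do not show whether the gene's transcript was present.

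**Figure D2:**
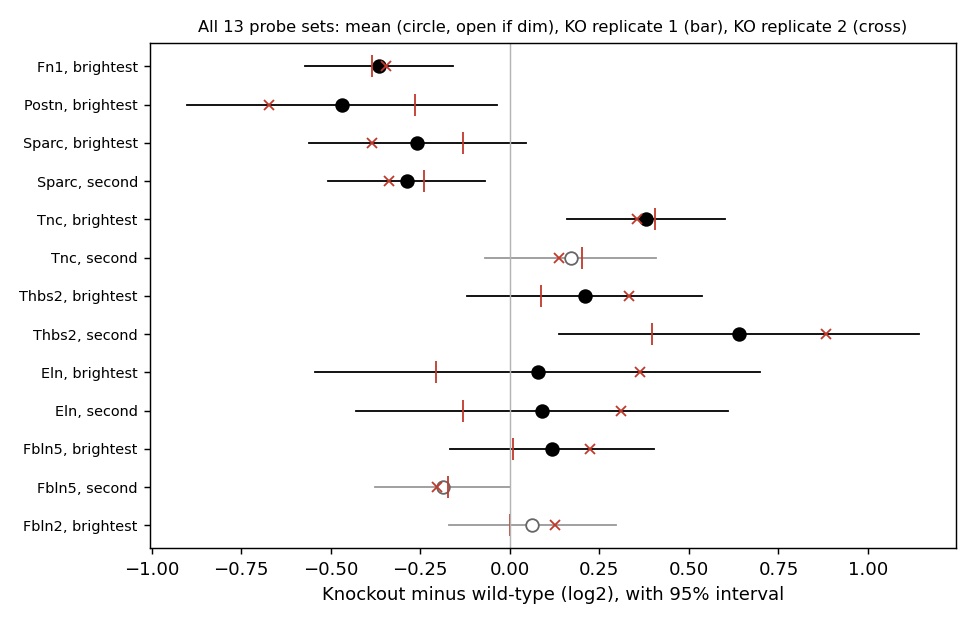
Knockout minus wild-type difference (log2, horizontal axis) for all 13 probe sets, each with its 95% interval from limma fitted over all probe sets, which differs a little from the intervals of the gene-level fit given in the text (for Postn, -0.90 to -0.03 here). Circles are mean differences (open for probe sets below the brightness limit), red bars knockout replicate 1 and red crosses knockout replicate 2, each relative to the wild-type mean. Eln spreads to both sides of 0, and the second Thbs2 probe set lies further from 0 than the brightest.

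Set side by side, the knockout arrays did not shift the 7 genes in a common direction. Relative to the wild-type mean, their median was -0.13 in knockout replicate 1 and 0.23 in knockout replicate 2. Knockout replicate 2 was above replicate 1 for 4 genes (Fn1, Eln, Fbln5 and Thbs2) and below it for the other 3. The median gap within the knockout pair was 0.25 for these genes and 0.21 for all genes, and within the wild-type pair 0.09 and 0.08. Likeness to Postn was the root mean square distance between a gene's 4 array values and those of Postn. Each value was first taken relative to the wild-type mean of its own gene. The genes closest to Postn were Coasy, a coenzyme A synthesis enzyme, at 0.011, and Rhoj, a small GTPase of endothelial cells, at 0.012 (log2). Mrpl4, a mitochondrial ribosomal protein, followed at 0.013. As many as 527 genes lay within 0.1 of Postn over these 4 arrays.

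Among genes for fibronectin receptors and assembly, 8 of 13 tested genes had a lower mean in the knockout and 5 a higher one, beside 53.5% and 46.5% of all genes. Their median difference was -0.26, against -0.02 over all genes. Both knockout arrays lay below both wild-type arrays for 7 genes and above them for 4, where 32.5% and 26.3% of all genes did, and 0 were called. Vitronectin (Vtn), an adhesive glycoprotein that shares integrins with fibronectin, was at 6.42 and 6.48 in the knockout arrays and 6.96 and 7.05 in the wild-type arrays (-0.56 ± 0.10, limma adjusted p = 0.123, SE, n = 2 per group). The integrin subunit gene Itgb5, whose product binds vitronectin, was at 9.02 and 9.16 in the knockout arrays and 9.68 and 9.61 in the wild-type arrays (-0.56 ± 0.11, limma adjusted p = 0.132). For both genes a second probe set was lower too, by 0.44 for Vtn and 0.53 for Itgb5.

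Syndecan 4 (Sdc4), a fibronectin co-receptor, went the other way, at 8.07 and 8.19 in the knockout arrays and 7.57 and 7.43 in the wild-type arrays (0.63 ± 0.11, limma adjusted p = 0.123, SE, n = 2 per group), although its dimmer probe set differed by only 0.06. The following genes were named after their values were seen. Itgb1, the integrin beta subunit of the main fibronectin receptors, differed by -0.32 and lay below both wild-type arrays. Ilk, a kinase-like adaptor behind it, differed by -0.35 and also lay below both. Itga4 (-0.63), Tgm2 (-0.53) and Tln1 (-0.26) were lower in both knockout arrays too. By contrast, Itga8 (0.69), Fndc1 (0.24) and Itgb3 (0.22) were higher in both. Other probe sets of Itgb1 above the brightness limit differed by -0.22 and -0.07. Second probe sets of Tgm2 (-0.26) and Tln1 (-0.23), also above that limit, were lower in mean, but their groups overlapped. Itga5, the alpha subunit of the classic fibronectin receptor, was near background, at 4.15 and 4.09 in the knockout arrays and 4.17 and 4.16 in the wild-type arrays.

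Elastic fibre assembly genes were 12 lower and 5 higher of 17 tested, with a median of -0.12, and 7 lay below and 3 above both wild-type arrays in both knockout arrays, beside 32.5% and 26.3% of all genes, with 0 called. Mfap5, a microfibril protein, was at 10.88 and 10.70 in the knockout arrays and 11.36 and 11.19 in the wild-type arrays (-0.48 ± 0.13, limma adjusted p = 0.169, SE, n = 2 per group). Lysyl oxidase (Lox), which crosslinks elastin and collagen, was at 9.06 and 8.54 in the knockout arrays and 9.53 and 9.48 in the wild-type arrays (-0.70 ± 0.21, adjusted p = 0.188). In both genes the knockout arrays lay below the wild-type arrays, and knockout replicate 2 was the lower. Ltbp2, a microfibril-associated protein of the fibrillin superfamily, differed by -0.33 ± 0.10 (adjusted p = 0.189). Other probe sets of Mfap5 and Lox were also lower, by 0.42 and by 0.86 and 0.35. Of the other genes of the list, 3 were named after their values were seen. The fibulin genes Fbln1 (0.73) and Efemp1 (0.49) were higher in both knockout arrays. The fibrillin gene Fbn2 was lower in both, but unequally (-0.55 ± 0.32, limma adjusted p = 0.382, SE, n = 2 per group). Relative to the wild-type mean, Fbn2 was at -0.12 in knockout replicate 1 and -0.98 in knockout replicate 2. Of the other Fbln1 probe sets, 1 differed by 0.50 and 1 by -0.10, the last with overlapping groups.

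Of 15 other matricellular genes tested 10 had a higher and 5 a lower mean (median 0.15), and 0 were called. Both knockout arrays lay above both wild-type arrays for 6 and below them for 2, beside 26.3% and 32.5% of all genes. The highest differences came with the widest knockout pairs. Thrombospondin 4 (Thbs4), a thrombospondin of tendon and muscle, was at 5.95 and 6.93 in the knockout arrays and 5.47 and 5.62 in the wild-type arrays (0.90 ± 0.36, limma adjusted p = 0.265, SE, n = 2 per group). Fibulin 7 (Fbln7), a cell adhesion protein, was at 6.30 and 7.52 in the knockout arrays and 5.999 and 6.002 in the wild-type arrays (0.91 ± 0.44, adjusted p = 0.320). Both were highest in knockout replicate 2, where the skeletal muscle markers had a median of 5.61 relative to the wild-type mean. The part of muscle in these values was not tested. Matrilin 2 (Matn2), a filament-forming adaptor protein, was at 8.15 and 7.20 in the knockout arrays and 8.62 and 8.56 in the wild-type arrays (-0.92 ± 0.35, adjusted p = 0.247), lowest in the same array.

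**Figure D3:**
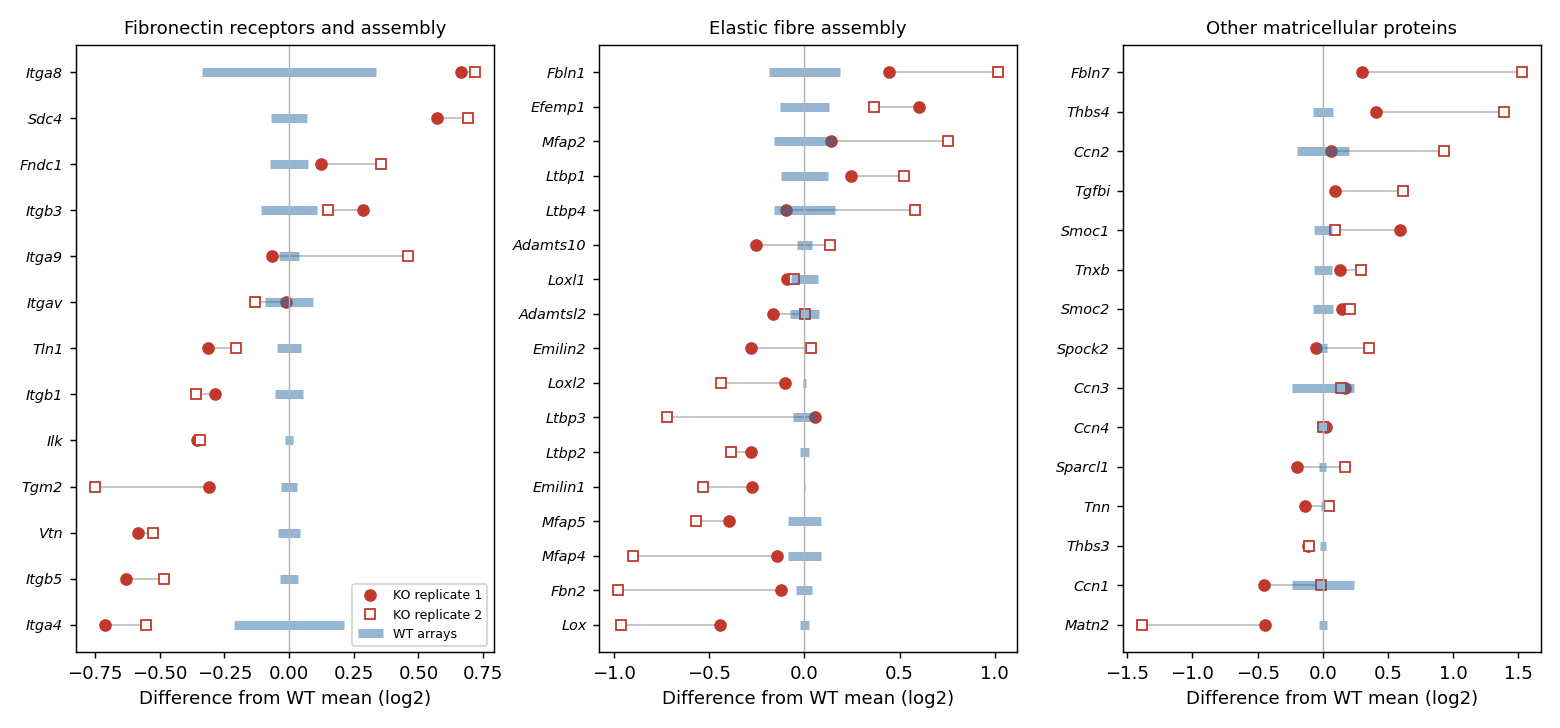
Difference of each knockout array from the wild-type mean (log2, horizontal axis) for the tested genes of 3 lists, sorted by mean difference. Filled circles are knockout replicate 1, open squares knockout replicate 2, and blue bars span the 2 wild-type arrays. Itgb5 and Ilk have close knockout pairs, while Itga9, Thbs4, Fbln7 and Matn2 have wide ones.

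Of 9 tested receptors and binding partners of matricellular proteins 6 had a lower and 3 a higher mean (median -0.17), and 0 were called. Both knockout arrays lay below both wild-type arrays for 6 and above them for 2, beside 32.5% and 26.3% of all genes. The laminin-binding integrin subunit gene Itga6 was at 10.01 and 9.97 in the knockout arrays and 10.56 and 10.45 in the wild-type arrays (-0.52 ± 0.10, limma adjusted p = 0.131, SE, n = 2 per group). Lrp1, an endocytic receptor that takes up thrombospondins, was at 10.15 and 10.79 in the knockout arrays and 9.61 and 9.56 in the wild-type arrays (0.88 ± 0.24, adjusted p = 0.180), and its dimmer probe set was higher by 1.52. Stab1, a scavenger receptor that clears SPARC, differed by -0.37 ± 0.14 (adjusted p = 0.253). Macrophages express Stab1, and 6 of 7 macrophage markers had a lower mean, beside 53.5% of all genes. For 4 of the 7 both knockout arrays lay below both wild-type arrays, and for 1, Cd14 (0.32), above them. The groups overlapped for the other 2. The summed level of the markers was 11.2 to 11.4 in the knockout arrays and 11.5 to 11.7 in the wild-type arrays. The part of macrophages in the Stab1 value was not tested.

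TGF-beta is a known inducer of several of these glycoprotein genes; its ligands, receptors and targets were read for that reason. Of 10 tested genes 6 had a higher and 4 a lower mean (median 0.03), and 0 were called. Both knockout arrays lay above both wild-type arrays for 1 and below them for 2, beside 26.3% and 32.5% of all genes, and 58.8% together. Tgfbr3, the co-receptor betaglycan, was at 10.78 and 11.04 in the knockout arrays and 10.56 and 10.58 in the wild-type arrays (0.34 ± 0.13, limma adjusted p = 0.244, SE, n = 2 per group). The feedback regulator gene Skil (-0.15, adjusted p = 0.454) and the collagen gene Col3a1 (-0.12, adjusted p = 0.538) lay slightly below both wild-type arrays. A second bright probe set of Col3a1 was lower by 0.43, with a 95% interval of -0.83 to -0.02, and a dim one of Tgfbr3 by 0.09.

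**Figure D4:**
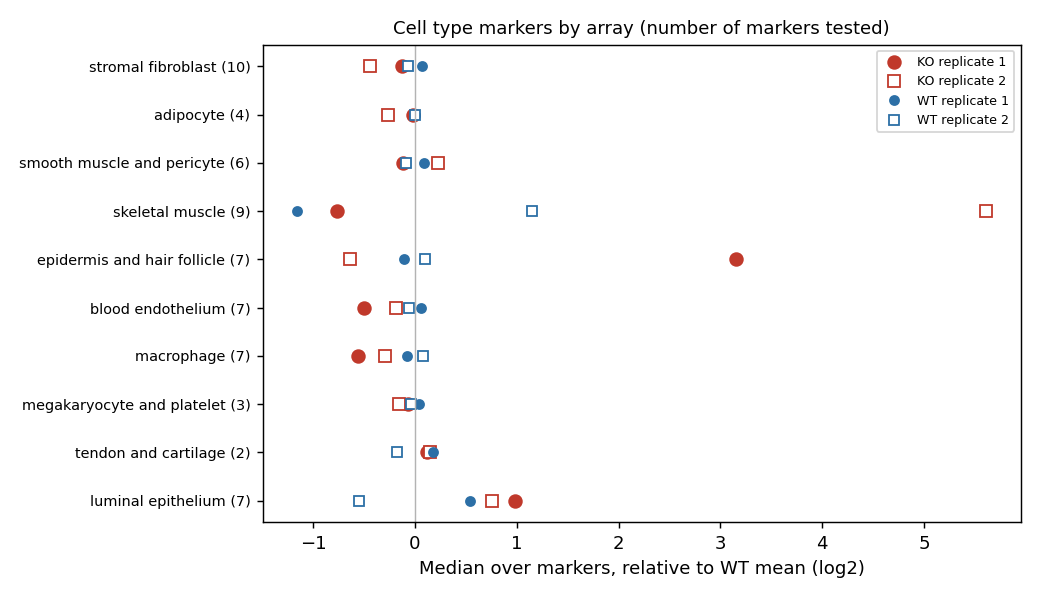
Median over the tested markers of each cell type in each array, relative to the wild-type mean of each gene (log2, horizontal axis). Red symbols are knockout and blue symbols wild-type arrays, with circles for replicate 1 and squares for replicate 2, and the number of markers stands in brackets. Knockout replicate 2 stands out for skeletal muscle (5.61) and knockout replicate 1 for epidermis and hair follicle (3.16).

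By their medians, marker lists of the other cells that could hold these transcripts varied less than those of muscle and epidermis. Of the 10 stromal fibroblast markers 7 had a lower mean and 3 a higher mean, with -0.26 as the median. Both knockout arrays lay below both wild-type arrays for 5 and above them for 1, beside 32.5% and 26.3% of all genes. The largest difference was that of Thy1 (-1.18), and Pdgfra, near the brightness limit, was higher in both knockout arrays (0.38). Dcn (0.09, groups overlapping) and Dpt (-0.55), defining fibroblast genes, were bright in every array. The 7 blood endothelial markers all had a lower mean (median -0.34), beside 53.5% of all genes. For 5 of them both knockout arrays lay below both wild-type arrays, beside 32.5% of all genes, and the groups overlapped for 2. Their summed level was 11.6 to 11.9 in the knockout arrays and 12.1 in each of the wild-type arrays. The 7 luminal epithelial markers all had a higher mean (median 0.94), and wild-type replicate 2 lay 1.09 below wild-type replicate 1. Both knockout arrays lay above both wild-type arrays for 5 of them, beside 26.3% of all genes, and the groups overlapped for 2. The 3 tested platelet markers had a median of -0.11. The 4 adipocyte markers had a median of -0.14, with 3 lower in mean and 1 higher, beside 53.5% and 46.5% of all genes. Their median does not show the leptin gene Lep, at 6.95 and 4.48 in knockout replicates 1 and 2 and 10.7 in each wild-type replicate. Its difference was -5.00 ± 0.89 (log2, SE, n = 2 per group), with a limma adjusted p of 0.124. Of the tendon and cartilage markers only 2 of 7 were bright enough to test, with a median of 0.13, and the defining tendon genes Scx and Tnmd lay below the brightness limit. The part of these lists in the glycoprotein values was not tested.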

How the data were processed

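Inguinal mammary gland RNA of 2 knockout and 2 wild-type samples (postnatal day 10) was amplified from the 3-prime end and read on Affymetrix mouse arrays, per the labels' protocols. Probe values were summarised by the authors with RMA in affy, per the submitters' processing notes, which give no version. RMA equalises the distributions of the arrays, which hides a change shared by most genes. The deposited values were taken as log2 expression, a scale read from their range of 3.16 to 13.7. Detection calls were not used. Precision is limited by the number of arrays.

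Of 45141 probe sets, 28898 had 1 gene in the annotation of the array design, 551 had several and 15692 none, control probe sets included. Of the 28898, 28689 matched a RefSeq gene table (GRCm38.p6) by gene identifier. Each gene was represented by its brightest probe set (mean of the 4 arrays), and the 11078 genes with a mean of at least 4.94, the median of all probe sets, were tested with limma 3.58.1 in R 4.3.3 (lmFit, eBayes, genotype only, Benjamini-Hochberg adjustment at 0.05). Further probe sets were read from a limma fit over all probe sets. With 2 against 2 arrays an exact permutation test cannot give a two-sided p below 0.333, so none was used. The tests were checked on simulated data with equal spread in both groups and planted differences larger than any glycoprotein difference here. That check cannot show how differences of the size seen here are handled. From each of 5 pathway lists the 3 genes with the smallest p among those whose groups did not overlap were named, unless said otherwise, and 10 cell type lists were summarised. The 3 genes most like a member were named for members with at least a 2-fold difference or, as none had that, for the member with the largest. The genes described and the lists were chosen with earlier results of these data known. Alternatives were the brightness filter, the choice of probe set, the scaling, the variance model, the replicate number as a block and each array left out.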

Additional observations from a re-analysis of the deposited data

How the results depend on the processing

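Under 14 alternatives Fn1, Postn, Sparc, Tnc and Thbs2 kept the direction of their differences. With all 4 arrays no alternative called any of the 7 glycoprotein genes or any gene at an adjusted p of 0.05. Leaving out 1 array gave 0 to 1455 genes called higher and 0 to 2725 lower, 0 to 3 glycoprotein genes called, and a median over the 7 genes of -0.13 to 0.23. The single differences then ran from -0.41 to -0.32 for Fn1, -0.67 to -0.26 for Postn, -0.38 to -0.13 for Sparc, 0.32 to 0.44 for Tnc, 0.09 to 0.33 for Thbs2, -0.21 to 0.36 for Eln and 0.01 to 0.23 for Fbln5. The calls came without knockout replicate 1 (1455 higher, 2725 lower) or knockout replicate 2 (746 higher, 553 lower), and the wild-type pair then sets the spread. Averaging the probe sets of each gene turned Fbln5 to -0.035, since its dim second probe set then counts as much as the bright one, and Thbs2 became 0.42. The replicate block left each difference as it was and called 0 genes, with an adjusted p of 0.307 for Fn1. Same-numbered arrays did not deviate together (r = -0.09 across genes, which are not independent replicates), so the numbers were not taken as pairs. Signal near background limits Fbln2 and the second probe sets of Tnc and Fbln5.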
